A study of Homo sapiens with 2 samples.

Results

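The genes described here are 10 growth- and stress-responsive transcription factors: the FOS family (FOS, FOSB, FOSL1 and FOSL2), the JUN family (JUN, JUNB and JUND), EGR1, EGR3 and MYC. They were chosen by name, as both AP-1 families with EGR1, EGR3 and MYC, out of 41582 genes in the table. The sequenced cells were U87, an established glioblastoma line of human origin labelled as wild type in genotype, which were grown in RPMI medium with fetal bovine serum. Cells were treated for 72 h with the curcumin analog CCA-1.1 or with DMSO, its solvent. Each condition had 1 library, so no difference given here has a replicate check and no test was made. The concentration of CCA-1.1 used for sequencing is not given in the sources used here. Expression is given in TPM, a read abundance corrected for transcript length and library size, which the authors calculated per transcript and which was summed here over the transcripts of each gene. Levels of different genes can therefore be set side by side, but TPM does not show how many reads stand behind a value. Because RNA of a whole culture was measured, fewer expressing cells and less RNA per cell cannot be told apart.

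AP-1 is a dimer of leucine zipper proteins. JUN proteins pair with one another or with FOS proteins, whereas FOS proteins need a JUN partner to bind DNA, and the pair recognises the TPA response element (TRE) or the cyclic AMP response element (CRE). FOS, FOSB, JUN, JUNB, EGR1 and EGR3 are immediate early genes, which growth factors switch on briefly, several of them through ERK signalling and serum response factor. FOSL1 and FOSL2 are induced later and persist. EGR proteins are zinc finger factors that bind GC-rich sites, and MYC binds E-boxes with its partner MAX and promotes ribosome production and growth. In glioblastoma, AP-1 activity is associated with the mesenchymal state, and MYC with proliferation.

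RefSeq promoter windows of GRCh38.p14, reaching from 250 bases before to 50 bases after the gene start, matched FOS, FOSB, FOSL2, JUN, JUNB, JUND and EGR1, and did not match FOSL1, EGR3 or MYC. The windows are shown for FOS and EGR1, which were near 6 TPM, and for JUN and JUND, which were above 200 TPM, to set 2 weakly expressed immediate early genes beside the 2 most abundant members. Only the 250 bases before the start are printed, 5′ to 3′ on the strand of the gene. Capitals mark a CArG box (the binding site of serum response factor), the CRE TGACGTCA, its core TGACG, the TRE TGANTCA or the TATA box TATAAA, on either strand, where each CRE also holds the core on both strands. FOS lies on the plus strand with its window at chr14:75278578-75278827, EGR1 on the plus strand at chr5:138465229-138465478, JUN on the minus strand at chr1:58784048-58784297 and JUND on the minus strand at chr19:18281623-18281872.
FOS: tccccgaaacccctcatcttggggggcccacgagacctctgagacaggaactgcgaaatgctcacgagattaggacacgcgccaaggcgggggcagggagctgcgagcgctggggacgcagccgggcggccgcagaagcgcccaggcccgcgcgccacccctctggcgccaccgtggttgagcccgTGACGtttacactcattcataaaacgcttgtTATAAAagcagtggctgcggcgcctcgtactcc
EGR1: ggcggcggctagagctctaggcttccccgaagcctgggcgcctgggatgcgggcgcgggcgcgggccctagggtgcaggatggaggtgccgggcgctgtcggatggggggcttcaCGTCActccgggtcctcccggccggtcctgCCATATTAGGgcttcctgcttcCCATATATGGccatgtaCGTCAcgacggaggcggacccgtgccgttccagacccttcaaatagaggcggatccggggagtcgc
JUN: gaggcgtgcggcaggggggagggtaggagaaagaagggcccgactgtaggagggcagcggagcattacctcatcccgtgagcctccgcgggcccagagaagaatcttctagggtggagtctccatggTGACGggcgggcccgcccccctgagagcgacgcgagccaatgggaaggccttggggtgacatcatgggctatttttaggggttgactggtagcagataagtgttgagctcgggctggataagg
JUND: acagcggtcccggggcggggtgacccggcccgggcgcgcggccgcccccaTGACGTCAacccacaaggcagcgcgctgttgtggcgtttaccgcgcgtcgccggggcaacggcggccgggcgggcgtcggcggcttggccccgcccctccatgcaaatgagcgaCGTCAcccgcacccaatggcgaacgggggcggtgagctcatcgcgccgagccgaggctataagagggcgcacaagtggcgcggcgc

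The CRE core TGACG was present in all 7 windows searched, against 25.01% of the 27305 RefSeq promoter windows of the same length. In EGR1, 2 CArG boxes began 105 and 83 bases before the start, and 1.29% of all windows hold one. The FOS window holds the CRE core 64 bases and the TATA box 33 bases before the start. A TATA box was also found in FOSB and JUNB (12.0% of all windows). JUND alone among the 7 holds the full CRE (1.98% of all windows), which begins 200 bases before the start. The TRE TGANTCA was found in FOSL2 alone (7.76% of all windows), and the EGR site GCGNGGGCG in EGR1 alone (9.28%). The GC box GGGCGG was found in 5 of the 7 (44.6% of all windows), where it overlaps the CRE core by a base in JUN, and the E-box CACGTG in none (7.43%). These are matches of the letters given and not measured binding sites. Variants that differ from them by a letter were not counted. Sequence more than 250 bases before the start was not searched, so a motif absent from a window can lie further upstream. As the values below show, JUN, JUND, FOS and EGR1 each differed little between the libraries.

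The table first shows which of these factors U87 cells carried at all. JUND was the most abundant, at 685 TPM in the DMSO library and 678 TPM in the CCA-1.1 library, above 98.8% of the 15485 genes with a mean of 1 TPM or more in both. JUN was at 237 TPM (DMSO) and 226 TPM (CCA-1.1), and JUNB was at 176 TPM and 147 TPM. The late FOS family genes followed, with FOSL1 at 73.0 TPM (DMSO) and 68.1 TPM (CCA-1.1) and FOSL2 at 64.7 TPM and 54.0 TPM. JUND, JUN, JUNB, FOSL1 and FOSL2 held the first 5 places of the order in both libraries.

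MYC was next in the order, at 21.1 TPM (DMSO) and 31.6 TPM (CCA-1.1). The immediate early factors FOS and EGR1 were low, FOS at 6.36 TPM (DMSO) and 5.59 TPM (CCA-1.1) and EGR1 at 5.87 TPM and 6.30 TPM. FOSB was at 1.68 TPM (DMSO) and 1.26 TPM (CCA-1.1). EGR3, another early gene of the EGR family, was below 1 TPM in both libraries, at 0.71 TPM and 0.64 TPM, and is left out of the counts over members below. The order was the same in both libraries except that FOS stood above EGR1 in DMSO and below it in CCA-1.1. In the DMSO library, the gap between FOSL1 and FOSL2 (0.17 on the log2(TPM + 1) scale) and that between FOS and EGR1 (0.10) were smaller than the difference of a gene of the pair between the libraries, as was the gap between EGR1 and FOS in CCA-1.1 (0.15). All other neighbours were further apart than that.

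**Figure D1:**
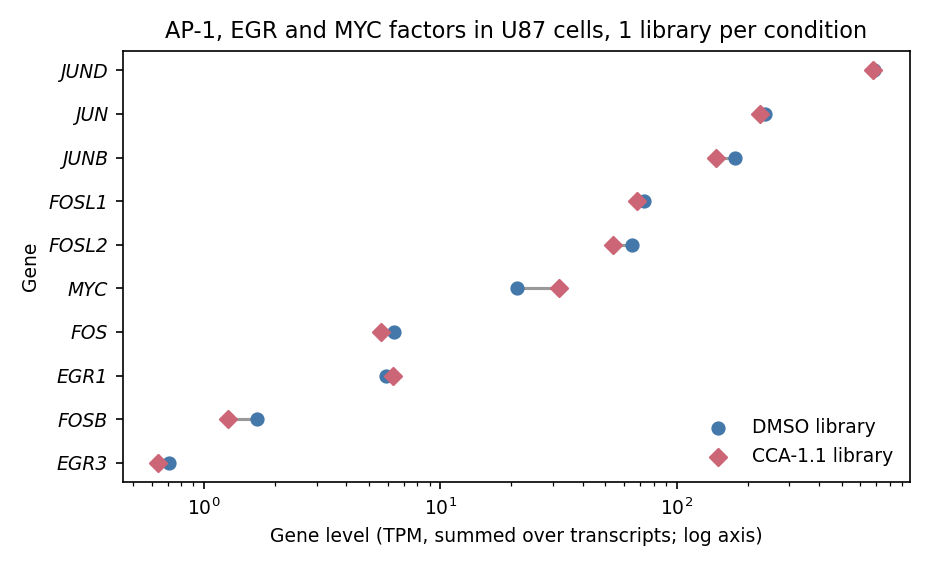
Level of each gene in TPM (x axis, log scale) in the DMSO library (circles) and the CCA-1.1 library (diamonds), 1 library each, ordered by the DMSO level. JUND sits highest at 685 and 678 TPM, and the symbols of MYC (21.1 and 31.6 TPM) are the furthest apart of the genes above 10 TPM.

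Each difference is the log2 of the ratio of CCA-1.1 to DMSO after adding 1 TPM to both, which makes changes of weakly expressed genes look smaller than they are. The fold criterion of the study was 2-fold, used with a p-value limit, and its listed values are for single transcripts. Here 2-fold was applied to gene sums and without a p-value. None of the 9 members with a mean of 1 TPM or more differed by more than 2-fold. Among all 15485 genes at or above that mean, 1.89% were higher and 1.67% were lower in CCA-1.1 by more than 2-fold. No member differed by more than 1.5-fold either, against 4.23% of all genes higher and 2.82% lower. A smaller limit was set at 25% higher or 20% lower, which is the same ratio in either direction. MYC alone was higher by more than this limit (1 of 9 members, against 11.5% of all genes), and 0 of 9 members were lower by more than it (6.88% of all genes). Without the added 1 TPM, FOSB was 25% lower and passed this limit as well (1 of 9 members, against 7.98% of the 15155 such genes above 0 in both libraries), and MYC passed 1.5-fold (1 of 9, against 5.67%). With 1 TPM added, these shares of members are close to or below those of all genes. The median difference of the 9 members was -0.10, beside 0.03 over all genes, with 2 members above 0 and 7 below 0, where 56.1% of all genes were above 0 and 43.8% below.

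MYC had the widest difference of the members, 0.57 on the log2(TPM + 1) scale, which is 10.6 TPM or 50.2% above the DMSO value. Among the 5463 genes with a mean between 10 and 50 TPM, 2.18% were higher in CCA-1.1 by at least as much as MYC, and the 5th and 95th percentiles were -0.30 and 0.37. The value lies just under the log2 of 1.5-fold (0.58), and the ratio of TPM without a pseudocount was 1.502. Both MYC transcripts of the table contributed. The main transcript NM_002467.6 was at 17.9 TPM (DMSO) and 27.0 TPM (CCA-1.1) (a difference of 0.57), and NM_001354870.1 was at 3.20 TPM and 4.61 TPM (0.42). The share of NM_001354870.1 in the MYC sum was nearly level, at 15.2% in DMSO and 14.6% in CCA-1.1. The MYC gene spans 127735434 to 127742951 on chromosome 8 (GRCh38.p14), and CASC11, a long non-coding gene 1467 bases away, was at 0.24 TPM and 0.54 TPM.

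**Figure D2:**
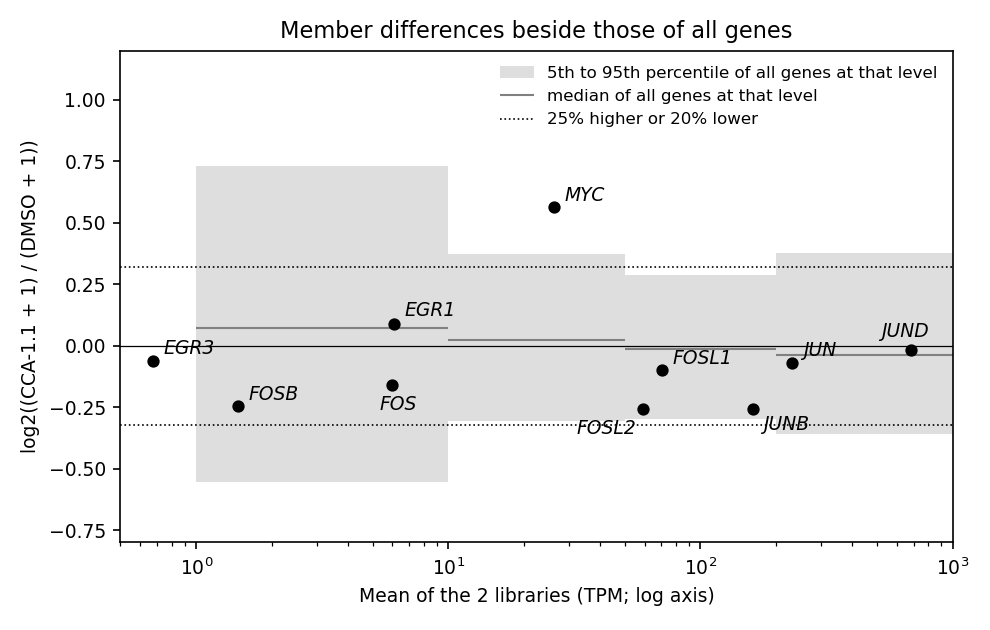
Difference of each member, log2((CCA-1.1 TPM + 1) / (DMSO TPM + 1)), against its mean TPM (log axis), with grey boxes for the 5th to 95th percentiles and grey lines for the medians of all genes in 4 ranges of mean TPM (EGR3, under 1 TPM, lies outside them) and dotted lines at 25% higher and 20% lower. MYC, at 0.57, is above the box of its range, and the other 8 members with a mean of 1 TPM or more lie inside theirs.

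Each of the 7 AP-1 genes had a slightly lower value with CCA-1.1, as did 43.8% of all genes with a mean of 1 TPM or more. The median difference of all genes was -0.01 between 50 and 200 TPM and -0.04 above 200 TPM, so values just below 0 were common there. Between 1 and 10 TPM, the range of FOS and FOSB, the median was 0.07. JUNB, on chromosome 19 from 12791486 to 12793315, had a difference of -0.26 (16.5% below DMSO), and 7.02% of the 2407 genes between 50 and 200 TPM were lower by at least as much. FOSL2, on chromosome 2 from 28392858 to 28417317, also had a difference of -0.26 (16.6% below DMSO), and 7.06% of that range were lower by at least as much. The 5th percentile of this range was -0.30, so both stand near its lower edge but inside it.

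FOSL1, on chromosome 11 from 65892049 to 65900545, differed by -0.10, and 28.6% of genes in the same range were lower by at least as much. JUN, on chromosome 1 from 58780791 to 58784047, differed by -0.07, and JUND, on chromosome 19 from 18279694 to 18281622, by -0.02. Of the 719 genes above 200 TPM, 41.6% were lower by at least as much as JUN and 55.5% by at least as much as JUND. The differences of these 3 genes lay well within those of genes at their level.

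The low immediate early factors showed small differences as well. FOS, on chromosome 14 from 75278828 to 75282230, differed by -0.16, FOSB, on chromosome 19 from 45467996 to 45475179, by -0.25, and EGR1, on chromosome 5 from 138465479 to 138469303, by 0.09. In the range from 1 to 10 TPM, the 5th and 95th percentiles of 6896 genes were -0.55 and 0.73, and 19.5% of these genes were lower by at least as much as FOS, 13.0% were lower by at least as much as FOSB and 47.7% were higher by at least as much as EGR1. EGR3, on chromosome 8 from 22687659 to 22693480, differed by -0.06.

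The makeup of FOS and JUN family RNA was read from the family sums. These sums do not show protein amounts or dimers, and they leave out the other leucine zipper partners given below. JUN family transcripts summed to 1098 TPM (DMSO) and 1051 TPM (CCA-1.1), a difference of -0.06, and FOS family transcripts summed to 146 TPM and 129 TPM, a difference of -0.18. JUN family RNA therefore exceeded FOS family RNA 7.54-fold in DMSO and 8.15-fold in CCA-1.1. JUND made up 62.4% of the JUN family sum in DMSO and 64.5% in CCA-1.1, and JUN made up 21.6% and 21.5%. JUNB held 16.0% in DMSO and 13.98% in CCA-1.1. Within the FOS family, FOSL1 held 50.1% in DMSO and 52.8% in CCA-1.1, and FOSL2 held 44.4% and 41.9%. FOSL1 and FOSL2 together accounted for 94.5% and 94.7%, so FOS and FOSB, the transactivating members that are induced first, held only 4.36% and 1.153% in DMSO. The widest shift of a share in either family was 2.75 percentage points, for FOSL1.

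**Figure D3:**
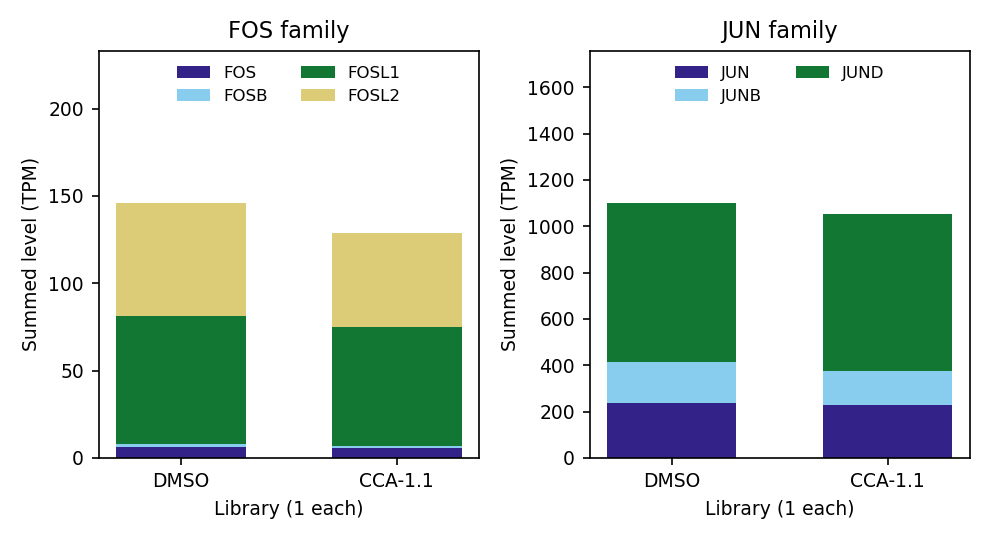
Stacked bars of the summed TPM of the FOS family (left) and the JUN family (right) in each library, 1 library per bar and without error bars, on separate axes that start at 0. FOSL1 and FOSL2 fill 94.5% of the FOS family bar in DMSO, and JUND fills 62.4% of the JUN family bar.

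The 10 genes have 26 transcripts in the table, of which 5 were listed at 0 in both libraries and 4 are the only transcript of their gene (FOS, JUN, JUNB and EGR1). On the log2(TPM + 1) scale the widest difference among them was that of NR_125339.2, a non-coding transcript of FOSL1, at 3.48 TPM (DMSO) and 1.41 TPM (CCA-1.1), a difference of -0.89. The coding transcript NM_005438.5 carried 80.8% of FOSL1 in DMSO and 84.2% in CCA-1.1, and it differed by -0.04. For FOSL2, NM_005253.4 carried 89.1% and 89.2%. The 2 transcripts of JUND had equal values, 343 TPM each in DMSO against 339 TPM each in CCA-1.1, and are not separated by these data. FOSB was carried by NM_006732.3, at 1.55 TPM and 1.26 TPM, while NM_001114171.2 was at 0.13 TPM in DMSO and listed at 0 in CCA-1.1. In EGR3, NM_001199880.2 was at 0.40 TPM (DMSO) and 0.19 TPM (CCA-1.1), and NM_004430.3 was at 0.31 TPM and 0.45 TPM. Kallisto divides reads shared by transcripts of a gene by estimation, so the gene sums depend on this step less than the single transcripts do.

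Genes that overlap a member could share its reads, and whether strand was used is not given in the sources used here. HOOK2 overlaps JUNB and was at 20.9 TPM (DMSO) and 21.9 TPM (CCA-1.1), and FOSL2-AS1 overlaps FOSL2 and was at 2.79 TPM and 2.72 TPM. LOC107986924, which overlaps EGR3, was at 0.01 TPM in both libraries. CCDC85B, 414 bases from FOSL1, was at 289 TPM (DMSO) and 247 TPM (CCA-1.1), a difference of -0.23. Neighbours within 2 kb of JUN, JUND and EGR3 were each below 1 TPM in both libraries (JUN-DT, LOC124904652, MIR3188 and LOC105379321).

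Lists of partners, related early genes and targets were set beside the members, with the same minimum of 1 TPM. As background, 11.5% of all genes were higher by more than 25% and 6.88% were lower by more than 20%. The lists were chosen with earlier results of these data known. Among the other leucine zipper factors that can pair with JUN or FOS proteins or compete for their sites, 3 of 15 were higher by more than 25%, 1 was lower by more than 20%, none passed 1.5-fold, and the median was 0.04. ATF4, the main factor of the integrated stress response, was at 312 TPM (DMSO) and 423 TPM (CCA-1.1), a difference of 0.44. ATF3, a stress-induced partner of JUN, was at 85.0 TPM and 115 TPM, a difference of 0.43. In the other direction, BATF3 (7.70 TPM and 5.94 TPM, -0.33) and CREM (44.4 TPM and 38.7 TPM, -0.19) had the lowest values of the list. BATF was listed at 0 in both libraries.

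The closest relatives of EGR1 and MYC showed no gene past the smaller limit (25% higher or 20% lower). EGR2, a zinc finger factor of the same family, was at 12.4 TPM (DMSO) and 13.3 TPM (CCA-1.1), above EGR1 itself, and NAB2, a corepressor that EGR factors recruit, was at 95.02 TPM and 100.1 TPM. EGR4 was listed at 0 in both. In the MAX network, 0 of 11 genes passed it and the median was -0.01. MYCL was listed at 0 in both libraries and MYCN was at 2.19 TPM and 2.13 TPM, so MYC was the highest MYC family gene of these cells. MXD4 (17.0 TPM and 14.9 TPM, -0.18) and MXD1 (9.26 TPM and 8.22 TPM, -0.15) had the lowest differences. MLXIPL (0.19) and MXI1 (81.0 TPM and 88.2 TPM, 0.12) had the highest. MXI1 competes with MYC for MAX as MXD4 and MXD1 do, so these competitors differed in both directions.

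Serum response factor, its coactivators MRTFA and MRTFB, and factors of the ETS family, of which the ELK proteins act with it at CArG boxes, also stayed within the limit, with 0 of 10 past it and a median of -0.06. ETS2 (19.8 TPM in DMSO against 16.9 TPM in CCA-1.1, -0.22) and ELK3 (25.04 TPM and 21.7 TPM, -0.20) were the lowest, and ELK4 (0.13) and ETS1 (0.12) the highest. Of the other immediate early genes, 5 of 24 were lower by more than 20% (6.88% of all genes). In this list 1 was higher by more than 25% (11.5% of all genes), and the median was -0.16. KLF10, which TGF-beta induces, was at 35.9 TPM (DMSO) and 23.4 TPM (CCA-1.1), a difference of -0.60 and the only one of the list past 1.5-fold with 1 TPM added. The nuclear receptor NR4A3 was at 1.86 TPM and 0.93 TPM (-0.57). Without the added 1 TPM, NR4A3 passed 1.5-fold too, and 7 of the 24 were lower by more than 20%. The share of all such genes above 0 in both libraries was 7.98%. ARC was the gene higher by more than 25%, at 16.3 TPM and 21.6 TPM (0.38), and BTG2, an antiproliferative gene, differed by 0.18.

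Genes known as AP-1 targets had the lowest median of the lists, -0.36 over 19 genes. None was higher by more than 25% (11.5% of all genes), and 12 were lower by more than 20% (6.88%). By more than 1.5-fold, 5 were lower (2.82% of all genes), and by more than 2-fold, 4 were lower (1.67%). CXCL8, a neutrophil chemokine, was at 73.2 TPM (DMSO) and 29.6 TPM (CCA-1.1), a difference of -1.28. PTGS2, the inducible cyclooxygenase, was at 32.7 TPM and 13.3 TPM, a difference of -1.24. MMP3 (-1.04) and IL6 (-1.03) were the other genes past 2-fold, and PLAU, the urokinase gene, was at 90.1 TPM and 55.6 TPM (-0.69). CXCL8, PTGS2 and IL6 are also targets of NF-kB. In contrast, HMGA1 (378 TPM and 415 TPM, 0.13) and KRT18 (0.06) had the highest values of the list. With 1 TPM added, no difference among the AP-1 genes themselves was below -0.26, while FOSB was at -0.42 without it. Why these targets were lower was not tested, and this list was written with part of these values already known.

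For EGR1 targets the median was -0.01 over 14 genes. Of these, 1 was higher by more than 25% (11.5% of all genes) and 1 was lower by more than 20% (6.88%). GDF15, a stress-induced cytokine, was at 1111 TPM (DMSO) and 1598 TPM (CCA-1.1) (0.52), and PTGES, the prostaglandin E synthase, was at 64.6 TPM and 43.0 TPM (-0.57). CDKN1A (0.28) and FN1 (-0.31) were next. Genes known to be activated by MYC had a median of 0.12 over 27 genes, 22 of them above 0 (81.5%, against 56.1% of all genes), although only 2 were higher by more than 25% and 0 were lower by more than 20%. NOP56, a snoRNP protein of ribosome production, was at 23.7 TPM (DMSO) and 34.4 TPM (CCA-1.1) (0.52), and NPM1, the nucleolar protein nucleophosmin, was at 938 TPM and 1212 TPM (0.37). ODC1, the first enzyme of polyamine synthesis, was at 19.6 TPM and 16.3 TPM (-0.26), and RRS1 differed by -0.13. Of the MYC-repressed genes, 4 of 9 reached 1 TPM, with a median of 0.21 and none past the smaller limit. These were CDKN1A at 830 TPM (DMSO) and 1009 TPM (CCA-1.1) (0.28), CDKN1B (0.26), NDRG1 (0.16) and GADD45A (-0.11).

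**Figure D4:**
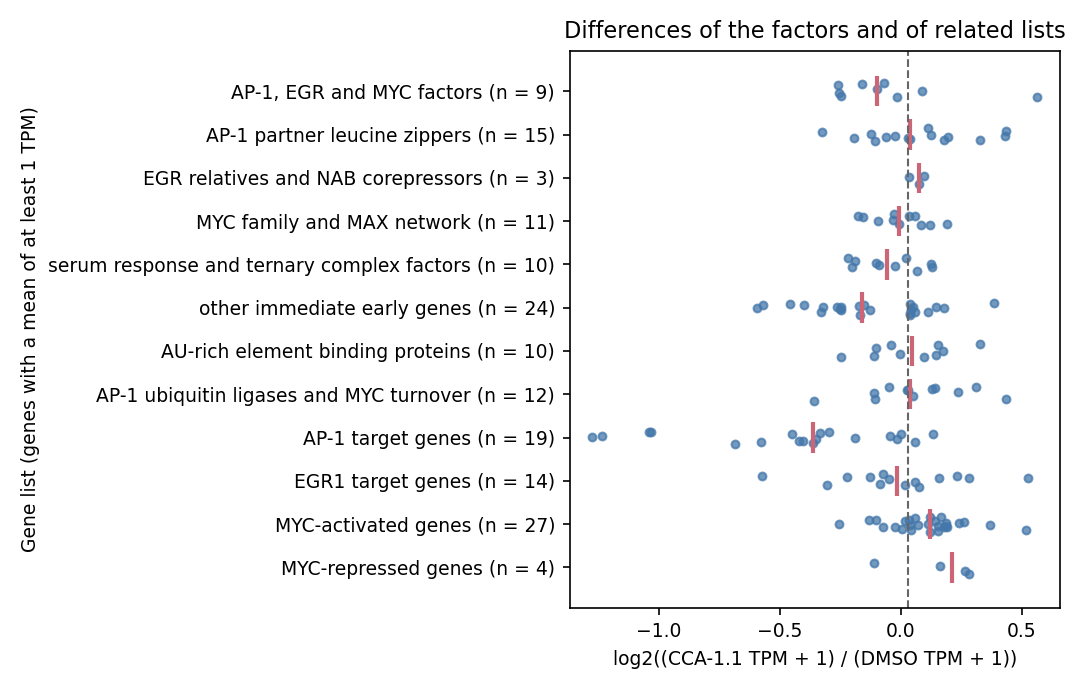
Each point is a gene with a mean of 1 TPM or more, placed by log2((CCA-1.1 TPM + 1) / (DMSO TPM + 1)) with random vertical spread, in rows for the 9 members and 11 related lists (some genes are in 2 lists). Red bars mark each list's median and the dashed line the median of all genes (0.03). The AP-1 target row reaches furthest to the left, to -1.28, and MYC is the rightmost point of the member row at 0.57.

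As a check of the labelled cells, genes of the CDKN2A locus, which U87 cells lack, were at or near 0: CDKN2A and CDKN2B were listed at 0 in both libraries and MTAP was at 0.22 TPM and 0.31 TPM. All 6 mesenchymal markers were above 1 TPM, with VIM at 3217 TPM (DMSO) and 3106 TPM (CCA-1.1). Of 7 glial markers, 4 had a mean of 1 TPM or more, S100B was listed at 0 and GFAP was at 0.41 TPM and 0.57 TPM. Of the other cell types, 1 of 5 immune, 0 of 4 epithelial and 1 of 3 endothelial markers had a mean of 1 TPM or more, the last being PECAM1 at 3.41 TPM (DMSO) and 2.71 TPM (CCA-1.1). Defining genes of immune cells (PTPRC and CD3E) and epithelial cells (EPCAM, CDH1) were below 0.2 TPM in both libraries, while CD68, which many tumour lines express, was at 494 TPM and 397 TPM. All 4 neuronal markers had a mean of 1 TPM or more and summed to 40.3 TPM (DMSO) and 37.3 TPM (CCA-1.1). Their part in the results above was not tested.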

How the data were processed

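RNA from U87 cells treated with DMSO or CCA-1.1 for 72 h was isolated, enriched for mRNA and sequenced on an Illumina instrument, with 1 library per condition. The authors checked reads with FastQC 0.11.9 and MultiQC 1.1 and estimated abundance with Kallisto on GRCh38.p14. The deposited values are TPM per transcript with 2 decimals, the unit being taken from the methods and from column sums near 1000000. TPM holds no read depth, so no counting interval is given.

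Transcripts were matched to symbols through the RefSeq gene table of GRCh38.p14 (169966 of 177816, ignoring versions), and TPM was summed per gene. Differences used a pseudocount of 1 TPM, and counts used genes with a mean of 1 TPM or more. From each list, the 2 genes with the highest and the 2 with the lowest difference were named, together with all members, genes within 2 kb of them and markers. MMP3, IL6, PLAU, NDRG1, MYCN, CDC25A, TERT and genes listed at 0 were named after their values were seen. Members and lists were chosen with earlier results of these data known. No protein sequences were compared here, and 1 planned marker gene is not reported here. The calculation was checked on simulated TPM. Python 3.11.15, numpy 2.4.6, pandas 2.3.3 and matplotlib 3.10.9 were used.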

Additional observations from a re-analysis of the deposited data

How the results depend on the processing

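Of 87 values recomputed under the alternatives, 78 stayed within 0.1 on the log2 scale, within 1 percentage point for a share or within 1.5 times for a count, and none of the member differences changed sign. The number of members past 1.5-fold was 1 without a pseudocount, when MYC passed it, and the number past the smaller limit (25% higher or 20% lower) was 2 with a pseudocount of 0.1 TPM and 2 with none, when FOSB (-0.39 and -0.42) joined MYC. The difference of MYC ran from 0.56 to 0.59 over all settings. With curated transcripts only, FOSL1 held 52.6% of the FOS family in DMSO and 55.3% in CCA-1.1, and FOSL2 held 41.6% and 39.1%. Scaling by the median ratio (1.01) and rescaled protein-coding genes left the counts of members and their median within those limits, as did no minimum mean for the count past 2-fold and the median, and a minimum mean of 10 TPM for the median. Other counts were not run under other minimum means. In an alternative chosen after seeing the data, 61 of 66 counts over the related lists were unchanged without a pseudocount. The exceptions were early genes lower by more than 1.5-fold (2, NR4A3 with KLF10) and by more than 20% (7), turnover factors higher by more than 25% (2), AP-1 targets lower by more than 1.5-fold (6) and EGR1 targets lower by more than 1.5-fold (1, PTGES). Leaving out a library or pairing libraries was not possible with 1 per condition. The unknown read depth limits the values of EGR3, FOSB, FOS and EGR1 most.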

Other observations

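Proteins that bind AU-rich elements, which shorten or lengthen the life of early gene mRNAs such as those of FOS and MYC, had a median difference of 0.05 over 10 genes, beside 0.03 for all genes. ZFP36, which promotes decay of such mRNAs and is itself an immediate early gene, was at 141 TPM (DMSO) and 119 TPM (CCA-1.1) (-0.25), and its relative ZFP36L1 was at 509 TPM and 471 TPM (-0.11). TIAL1, a translational repressor, was at 48.4 TPM and 61.1 TPM (0.33), and AUH differed by 0.17. Only TIAL1 was higher by more than 25% (1 of 10, against 11.5% of all genes).

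Factors that control the turnover of AP-1 and MYC proteins had a median of 0.04 over 12 genes. After 1 TPM was added, 1 was higher by more than 25% (11.5% of all genes) and 1 was lower by more than 20% (6.88%). SKP2, a ubiquitin ligase subunit that acts on MYC, was at 3.08 TPM (DMSO) and 4.52 TPM (CCA-1.1) (0.44). USP28, a deubiquitinase that stabilises MYC, was at 1.73 TPM and 2.39 TPM (0.31), past 25% only without the added 1 TPM. Both have means between 1 and 10 TPM, where 18.1% of genes were higher by more than 25% and the 95th percentile was 0.73. AURKA, a mitotic kinase, was at 18.7 TPM and 14.4 TPM (-0.36), and HUWE1 differed by -0.11. With 1 library per condition, none of these differences was tested.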
